A study of Caenorhabditis elegans with 2 samples.

Results

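The genes described here encode the enzymes that activate fatty acids and start their beta-oxidation in Caenorhabditis elegans. They are all 58 protein-coding genes whose symbol in the WBcel235 annotation begins with acs-, cpt-, acdh-, acox- or ech-, out of 19973 nuclear protein-coding genes. The question was at which of them the intestinal transcription factor ELT-2 occupied the promoter, and whether that differed between enzyme steps and between peroxisomal and mitochondrial enzymes. ELT-2 was mapped by chromatin immunoprecipitation and sequencing with an anti-GFP antibody in 2 biological replicates, which form 1 group with no second condition. The animals were whole hermaphrodites of strain OP56 at the L3 larval stage, collected 40 hours after synchronization of starved L1 larvae. They carried unc-119(ed3) III and the integrated transgene wgIs56, which encodes ELT-2 fused at the C-terminus to GFP and FLAG. The tagged protein therefore came from a transgene, the chromatin came from all tissues of the animal, and the untagged protein was not measured.

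A fatty acid is first joined to coenzyme A by an acyl-CoA synthetase (acs genes). Carnitine palmitoyltransferases (cpt genes) then pass long chains into mitochondria, where acyl-CoA dehydrogenases (acdh genes) carry out the first oxidation, while in peroxisomes acyl-CoA oxidases (acox genes) do so. Enoyl-CoA hydratases and related enzymes of the crotonase fold (ech genes) act on the product in either compartment. In C. elegans the intestine is the main site of fat storage and breakdown, and peroxisomal beta-oxidation also shortens the side chains of the ascaroside pheromones. ELT-2 is the GATA factor of the differentiated intestine and binds the hexamer TGATAA.

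A gene was called bound if the summit of a peak lay from 1000 bp upstream to 500 bp downstream of any of its transcript starts. The peaks were the 9198 that passed the irreproducible discovery rate filter (the IDR list). The filter rates how well peak ranks repeat between replicates, but single peaks in the list can differ in rank. The acox-1.3 peak, for example, was at rank 11092 in replicate 1 and 7461 in replicate 2. The strongest peak of every bound member had the same rank in this list as in the authors' list for the pooled replicates. ELT-2 was found at 34 of the 58 genes (58.6%, 95% exact interval 44.9 to 71.4%), against 26.7% of all coding genes (5323 of 19973). These 34 genes held 46 summits in 45 peak intervals of distinct coordinates, some of which overlap one another. More than 1 summit lay in the window of 12 of the 34 (35.3%), against 17.5% of all bound coding genes. In most of the 12 the 2 summits were only 199 to 214 bp apart, in overlapping or identical peak intervals. Whether such pairs are separate sites was not tested. The 95% intervals here and below cover counting error only, and genes are not replicates of one another.

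The sequences at 9 intergenic summits show how the hexamer is placed where it is present. They were picked for having it close by, and include the strongest such summit of each family outside the acox-1.1 gene cluster. Each is given 5′ to 3′ on the strand of the gene named, within 50 bp of the summit and cut where an annotated exon begins, from the RefSeq genome of WBcel235, the assembly also called ce11. Capitals mark TGATAA or its reverse complement TTATCA.
acs-7, chrII:9291777-9291877, plus strand: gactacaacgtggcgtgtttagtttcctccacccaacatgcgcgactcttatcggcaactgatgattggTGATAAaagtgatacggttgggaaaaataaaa
acs-4, chrIII:7167130-7167230, plus strand: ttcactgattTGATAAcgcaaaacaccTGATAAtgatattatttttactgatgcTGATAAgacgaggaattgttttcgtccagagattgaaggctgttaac
cpt-4, chrV:5027815-5027915, minus strand: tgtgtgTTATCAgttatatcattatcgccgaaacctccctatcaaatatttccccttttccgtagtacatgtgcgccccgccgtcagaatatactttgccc
acdh-12, chrII:7196182-7196275, minus strand: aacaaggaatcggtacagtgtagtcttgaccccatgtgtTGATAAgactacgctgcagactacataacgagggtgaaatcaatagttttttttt
acdh-7, chrX:17217252-17217352, minus strand: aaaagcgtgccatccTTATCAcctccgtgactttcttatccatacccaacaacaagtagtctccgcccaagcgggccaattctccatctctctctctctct
acox-3, chrIV:6248612-6248712, minus strand: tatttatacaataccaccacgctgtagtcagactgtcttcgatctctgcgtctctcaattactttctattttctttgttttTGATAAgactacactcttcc
acox-1.6, chrX:15838719-15838819, minus strand: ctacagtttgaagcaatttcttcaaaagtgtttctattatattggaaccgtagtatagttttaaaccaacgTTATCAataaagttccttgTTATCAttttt
ech-9, chrIV:10236228-10236328, minus strand: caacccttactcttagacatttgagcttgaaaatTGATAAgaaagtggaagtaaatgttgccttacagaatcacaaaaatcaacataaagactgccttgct
ech-8, chrIV:10239188-10239277, minus strand: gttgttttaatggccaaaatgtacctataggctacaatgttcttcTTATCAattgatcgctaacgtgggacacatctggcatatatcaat
The acs-4 stretch holds 3 copies within 101 bases and the acox-1.6 stretch holds 2. At acdh-12 the printed stretch is also the promoter of the divergent gene maoc-1.

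Summits without the hexamer were found among the strong peaks as well, and 3 of them are given in the same way. They belong to acs-1, the member with the third strongest peak, to acs-2, a gene known for its induction by fasting, and to acox-1.5, the acox gene with the strongest peak outside that cluster.
acs-1, chrV:6524911-6524988, plus strand: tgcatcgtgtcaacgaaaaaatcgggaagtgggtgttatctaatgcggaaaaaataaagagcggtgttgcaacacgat
acs-2, chrV:15566647-15566747, plus strand: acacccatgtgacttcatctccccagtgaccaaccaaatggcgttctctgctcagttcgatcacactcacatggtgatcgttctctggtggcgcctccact
acox-1.5, chrIII:9592274-9592374, minus strand: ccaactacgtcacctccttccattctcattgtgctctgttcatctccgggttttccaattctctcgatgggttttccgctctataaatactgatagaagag
Within 100 bp of the acs-2 summit there was neither TGATAA nor any of the looser GATA sites AGATAA or AGATAG or TGATAG on either strand. The acs-1 and acox-1.5 summits each had 2 looser sites within 100 bp.

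Across all 46 member summits, 26 had TGATAA on either strand within 100 bp (56.5%, interval 41.1 to 71.1%), against 51.3% of the 5297 summits in the windows of all coding genes. In stretches of the same length centred 500 bp to either side the share was 16.3% for member summits and 19% for all promoter summits. With the 4 forms of the looser site, which include TGATAA, the shares were 76.1% of member summits and 66.5% of all promoter summits. The hexamer lay close to the summit, at a median distance of 29.5 bp, and within 50 bp in 22 of the 26. By family, TGATAA was found at 11 of 15 acs summits, 1 of 6 cpt summits, 3 of 8 acdh summits, 5 of 8 acox summits and 6 of 9 ech summits. Presence of the hexamer did not separate bound from unbound members. At least 1 copy lay between the outermost window edges of 31 of the 34 bound members (91.2%) and 22 of the 24 unbound members (91.7%). For genes with several starts that stretch can include sequence outside every window. Over all coding genes the corresponding shares were 89.3% of the bound and 79.1% of the unbound genes.

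Every enzyme step had bound members. ELT-2 was at 11 of 22 acs genes (50%, interval 28.2 to 71.8%), 4 of 6 cpt genes (66.7%, 22.3 to 95.7%) and 6 of 13 acdh genes (46.2%, 19.2 to 74.9%). It was at 6 of 7 acox genes (85.7%, 42.1 to 99.6%) and 7 of 10 ech genes (70.0%, 34.8 to 93.3%). Each share is above the 26.7% of all coding genes, but the lower bounds for cpt and acdh lie below that value. The intervals of all 5 families overlap one another, so no order of the steps can be read from these counts.

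**Figure D1:**
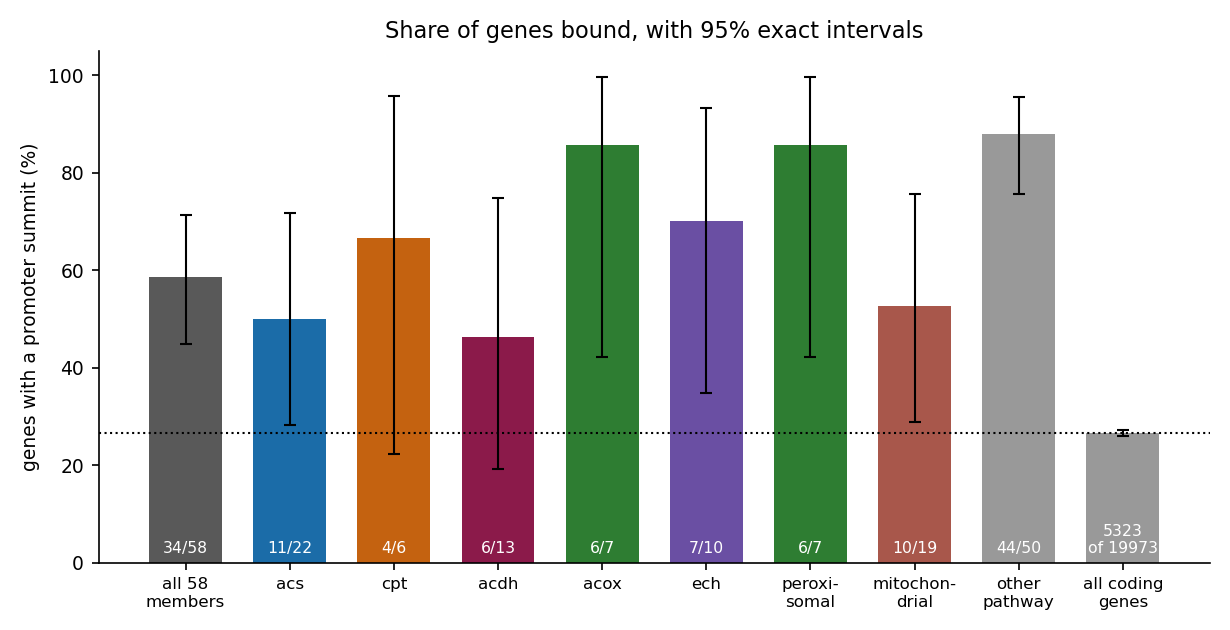
Share of genes with an ELT-2 summit in the promoter window (vertical axis, percent), with 95% exact intervals and the number bound over the number of genes in each bar. The dotted line is the share over all coding genes (26.7%), and every bar for the members, their families, both compartments and the 50 other pathway genes stands above it.

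Between compartments, the peroxisomal acox genes were bound at 6 of 7 (85.7%) and the mitochondrial acdh and cpt genes together at 10 of 19 (52.6%, interval 28.9 to 75.6%). Genes were assigned to a compartment by family, not by a measurement of where the proteins are. The difference was 33.1 percentage points, and the 2 intervals overlap widely. A wider definition placed the ascaroside synthetase gene acs-7 with the peroxisomal genes, and ech-1.1, ech-1.2, ech-6 and acs-2 with the mitochondrial ones. It gave 7 of 8 (87.5%) peroxisomal and 13 of 23 (56.5%) mitochondrial genes. Counting the main one, 10 settings of peak list, window, assignment and compartment were tried. The peroxisomal share was the higher one in each, by 20.3 to 37.1 points. These settings reuse largely the same genes, so they are not independent checks. Peak strength separated the compartments less. The median signal of the strongest promoter peak was 373.8 over the 6 bound peroxisomal genes, range 83.94 to 1002.6, and 309.1 over the 10 bound mitochondrial genes, range 88.77 to 929.1. TGATAA was within 100 bp of 5 of 8 peroxisomal summits (62.5%, interval 24.5 to 91.5%) and 4 of 14 mitochondrial summits (28.6%, interval 8.39 to 58.1%), which include the summit that acdh-12 shares with maoc-1.

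The signal of a peak is the authors' own measure against a control library, with no unit. Its scale differs between the replicate lists and the IDR list. In the IDR list it ran from 74.97 to 9719.3 with a median of 203.9. Over the 34 bound members the strongest promoter peak had a median signal of 325.9, against 222.1 over all bound coding genes, and 22 of the 34 lay above that value for all genes. By family the medians were 501.8 for acs, 377.2 for cpt, 309.1 for acdh, 373.8 for acox and 192.0 for ech. The ech genes were thus often bound but mostly at weaker peaks.

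**Figure D2:**
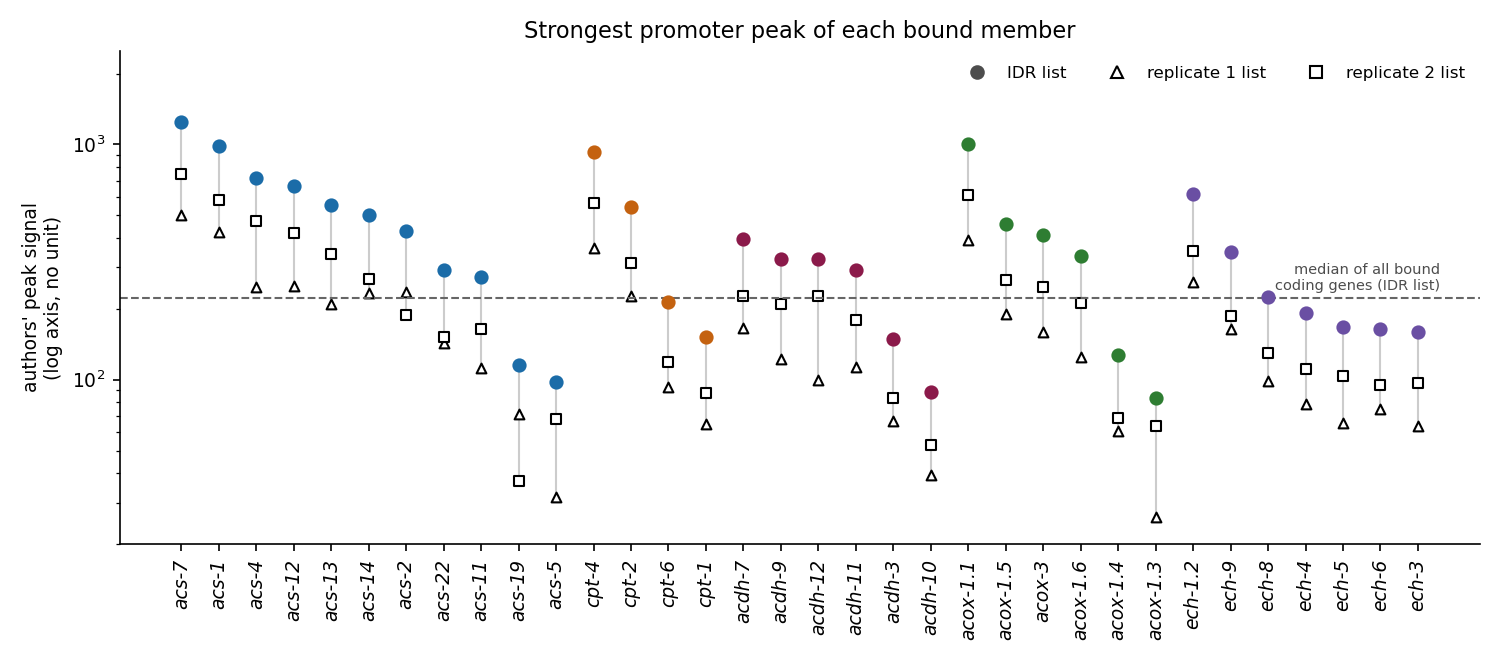
The authors' signal (log axis, no unit) of the strongest promoter peak of each of the 34 bound members, by family, in the IDR list (filled circles), the replicate 1 list (triangles) and the replicate 2 list (squares). The dashed line is the median over all bound coding genes in the IDR list (222.1), and acs-7, acox-1.1 and acs-1 stand highest.

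Among the activating enzymes, the strongest peak of all members was at acs-7, the synthetase that activates ascaroside side chains for peroxisomal shortening. Its summit lay 190 bp upstream of the start and had a signal of 1241.8 (rank 207 of 9198), with 501.4 in replicate 1 and 746.1 in replicate 2. At acs-1, which acts on monomethyl branched-chain fatty acids, the summit lay 28 bp upstream with a signal of 984.3 (rank 414), 423.8 in replicate 1 and 579.3 in replicate 2. The acs-4 peak, 658 bp upstream of this long-chain ligase gene, had a signal of 718.6, with 247.7 in replicate 1 and 471.6 in replicate 2. The order of these 3 genes was the same in both replicates, but in replicate 1 acs-12 stood just above acs-4 (249 against 247.7). The acs-12 signal of 668.2 belongs to a summit 644 bp upstream that lies in the 5′ UTR of amx-3 and nearer to the start of amx-3, with 249 in replicate 1 and 420 in replicate 2. It is the only member that was no longer bound when each summit was given to the nearest start alone.

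The remaining bound acs genes had weaker peaks. The signals were 554.1 at acs-13, 501.8 at acs-14, 427.2 at acs-2, 292.5 at acs-22, 274.4 at acs-11, 115 at acs-19 and 98.03 at acs-5. The acs-14 summit sat 999 bp upstream, just inside the window, but a second summit at 247 bp upstream had a signal of 309.6. For acs-2, whose product is a medium-chain ligase, the summit was 697 bp upstream, so the gene was bound in the main window and not in the one that reached only 500 bp upstream. The acs-5 summit lay 119 bp inside the gene in a coding exon with 4 copies of TGATAA within 100 bp. Its signal was 31.76 in replicate 1 (rank 9633) and 68.40 in replicate 2 (rank 7119), and the gene was not bound among the 9198 strongest peaks of replicate 1.

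In the IDR list, to which the distances below refer, the 11 unbound acs genes fell into 2 kinds. Some had a summit just beyond the window and the others were far from any. Weaker summits of the pooled list lay inside the windows of acs-10, acs-17, acs-20 and acs-21. At acs-6 a summit 1701 bp upstream had a signal of 1069.5 (rank 317), above that of every member's promoter peak but acs-7, and acs-6 was the gene with the nearest start. At acs-20, a fatty acid transport protein homologue needed for the cuticle barrier, a summit 1481 bp upstream had a signal of 562.8, and again no other start was closer. The nearest summit was 5510 bp downstream of the start at acs-21, 7880 bp downstream at acs-9 and 8842 bp upstream at acs-17. It was 10189 bp upstream at acs-10, 10051 bp upstream at acs-15 and 13060 bp downstream at acs-24. At acs-3, which acts in the epidermis, it was 17658 bp downstream, at acs-18 it was 17432 bp upstream and at acs-16 it was 24005 bp upstream. These 9 summits lay nearest to the start of another gene.

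Of the carnitine transferases, cpt-4 had the strongest peak, 142 bp upstream with a signal of 929.1, 361.4 in replicate 1 and 561.3 in replicate 2. The cpt-2 gene, whose homologue is the transferase of the inner mitochondrial membrane, had a signal of 539.6 at 187 bp upstream, with 225.9 in replicate 1 and 312.2 in replicate 2. That summit is also in the window of C08F8.9. At cpt-6 the signal was 214.7, 315 bp upstream, with 92.97 in replicate 1 and 119.2 in replicate 2. The cpt-1 gene, homologue of the outer membrane transferase that controls entry of long chains, had its stronger summit 327 bp downstream of the start in a coding exon, with a signal of 152.2, 64.60 in replicate 1 and 87.90 in replicate 2. The cpt genes thus ranged from one of the strongest member peaks to one below the median of the list. The unbound cpt-3 had a summit of 76.69 within the gene, 1489 bp downstream, and cpt-5 had none nearer than 5240 bp downstream. In the cpt-3 window only 48.2% of 36-base stretches occur once in the genome, the lowest share among the members.

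The acyl-CoA dehydrogenase genes had moderate peaks at most. The highest signal was 396.7 at acdh-7, a medium-chain enzyme, 197 bp upstream, with 166.3 in replicate 1 and 226.1 in replicate 2. At acdh-9, annotated as an isobutyryl-CoA dehydrogenase, it was 326.0 at 96 bp upstream, with 122.5 in replicate 1 and 209.4 in replicate 2, in a window shared with F28A10.13. The acdh-12 gene, annotated as very long-chain specific, had a signal of 325.8 at 591 bp upstream, with 99.5 in replicate 1 and 225.9 in replicate 2. That summit lies 44 bp from the start of maoc-1, which encodes a peroxisomal hydratase, so 1 peak stands between a mitochondrial and a peroxisomal gene. A separate summit in an acdh-12 intron, 405 bp downstream of a start, had a signal of 321.6, and acdh-12 remained bound when each summit was given to the nearest start only. At acdh-11 the signal was 292.4. At acdh-3 it was 148.6 at 261 bp upstream, with 66.63 in replicate 1 and 83.71 in replicate 2, at a summit also in the window of K06A5.3. At acdh-10 it was 88.77, with 39.53 in replicate 1 and 52.63 in replicate 2. The acdh-10 summit lay 272 bp downstream in a coding exon and outside the narrower window, which ended 200 bp downstream.

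The 7 unbound acdh genes include acdh-1, the first enzyme of the propionate shunt, whose nearest summit was 3473 bp upstream with a signal of 118.0. The nearest summit was 3174 bp downstream of acdh-2, 5985 bp upstream of acdh-4 and 3089 bp upstream of acdh-5. It was 4081 bp upstream of acdh-6, 8840 bp downstream of acdh-8 and 17314 bp downstream of acdh-13, a homologue of human ACAD9. All 7 summits lay nearest to the start of another gene.

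Among the peroxisomal oxidases, acox-1.1, which takes part in ascaroside shortening, had the strongest peak. Its signal was 1002.6 (rank 387) with 392.5 in replicate 1 and 609.1 in replicate 2, at position 12937874 of chromosome I, 681 bp upstream of the nearest start. At that distance it was bound in the main window but not in the narrower one. The acox-1.5 signal was 458.2 at 132 bp upstream, with 189.6 in replicate 1 and 265.8 in replicate 2. At acox-3 it was 412.1 at 170 bp upstream, with 159.0 in replicate 1 and 247.3 in replicate 2. The acox-1.6 peak had a signal of 335.5 at 223 bp upstream.

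Of the 7 acox genes, 4 stand head to tail on chromosome I, acox-1.1 to acox-1.4, within 15448 bp, and their peaks were unlike one another. The acox-1.1 promoter had the strong peak described above. The acox-1.2 gene was the one unbound oxidase. Its nearest IDR summit lay 4321 bp downstream, had a signal of 83.94 and was nearest to the acox-1.3 start. Its strongest pooled summit, 247 bp downstream of the start, had a signal of 74.47 at rank 9230 of the pooled list, just under the lowest IDR peak. The acox-1.3 peak was the weakest of all bound members, 83.94 at 331 bp upstream, with 26.07 in replicate 1 and 63.73 in replicate 2. Its rank in replicate 1 was 11092, so acox-1.3 was not bound among the 9198 strongest peaks of replicate 1, where acox-1.2 was. The acox-1.4 summit, 68 bp upstream with a signal of 127.8, fell in the 3′ UTR of acox-1.3. A second strong peak of the cluster, with a signal of 968.7 (rank 426), 416.1 in replicate 1 and 560.6 in replicate 2, lay in an intron of acox-1.3. It was 1214 bp upstream of acox-1.4, the nearest start, and so counted to no member. In the acox-1.4 window 73.7% of 36-base stretches occur once in the genome, and whether the deposited peaks used reads that map to several places is not given in the sources used here.

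**Figure D3:**
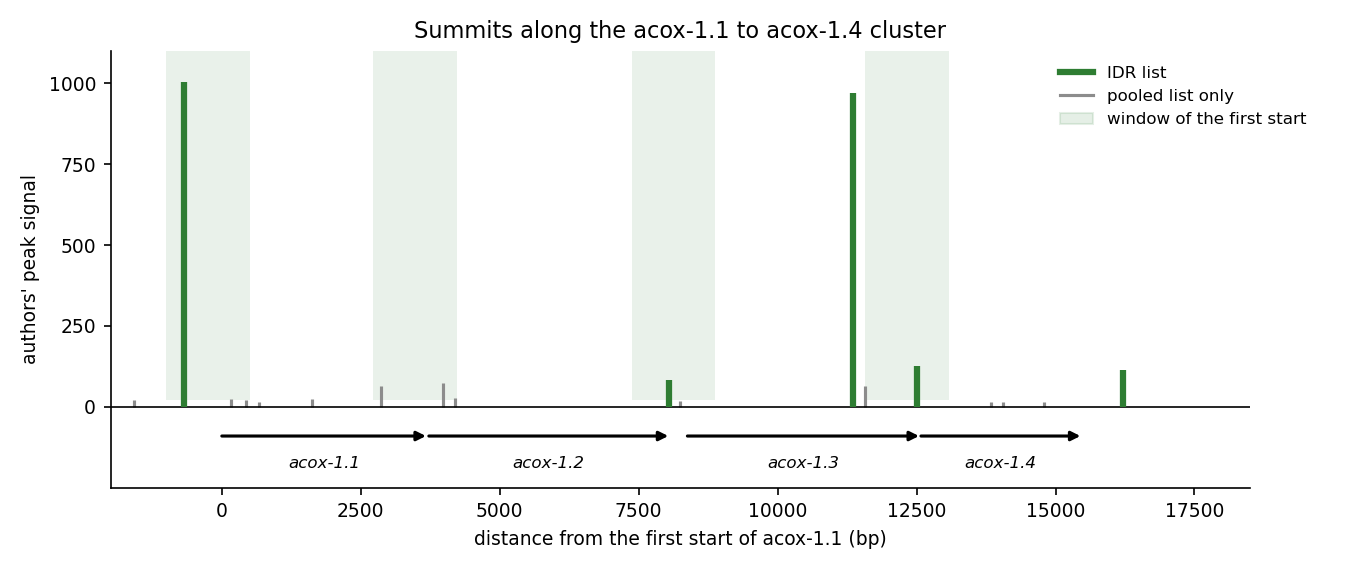
Summits along the 4 genes acox-1.1 to acox-1.4, drawn as arrows in the direction of transcription; the horizontal axis is the distance from the first acox-1.1 start in bp and bar height is the authors' signal. Green bars are IDR peaks, grey bars are peaks of the pooled list only, and shading marks the promoter window of the first start of each gene. The peak of 1002.6 lies in the acox-1.1 window, and that of 968.7 lies inside acox-1.3 and outside every window.

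In the hydratase family, ech-1.2, which encodes the alpha subunit of the mitochondrial trifunctional enzyme, had the strongest peak. It had a signal of 614.1 with 260.9 in replicate 1 and 351.1 in replicate 2, in an intron 204 bp downstream of a start, with a second intronic summit of 297.7. The ech-9 summit at 949 bp upstream had a signal of 348.8, with 164.2 in replicate 1 and 186.8 in replicate 2, and a second one at 258 bp upstream had 247.7. At ech-8 the summit lay 62 bp upstream with a signal of 223.8, 98.76 in replicate 1 and 129.7 in replicate 2. The other 4 bound genes had similar and weaker signals, namely 192.0 at ech-4, an enoyl-CoA isomerase gene, 167.0 at ech-5, 164.0 at ech-6 and 160.2 at ech-3. The ech-6 enzyme acts in the propionate shunt after acdh-1. The ech-4 summit, 130 bp upstream with 78.56 in replicate 1 and 110.8 in replicate 2, is also in the window of R06F6.8. The ech-5 summit, 221 bp upstream with 65.58 in replicate 1 and 103.3 in replicate 2, is also in that of F56B3.11.

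The other 3 ech genes were not bound. The nearest summit to ech-2 was 1044 bp upstream with a signal of 176.8, the closest of all to the edge of the window from outside. In the replicate 2 list the corresponding summit fell inside the window, at rank 5382, so ech-2 was bound there. The nearest summit to ech-7 was 1425 bp upstream with a signal of 143.3. The nearest to ech-1.1, the paralogue of ech-1.2, was 5849 bp downstream, and 84.5% of 36-base stretches in its window occur once in the genome.

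Over the 24 unbound genes of all families, 5 had a summit within 2000 bp and 14 had none within 5000 bp, with a median distance of 5679.5 bp. The same distances over other unbound coding genes are not given here. In the pooled list, which also holds peaks that did not pass the IDR filter, 11 of the 24 had a summit in the window (45.8%). The share over all unbound coding genes was 24.5%. With these 11 the members came to 45 of 58 (77.6%), against 44.6% of all coding genes by the same rule. With a window from 2000 bp upstream, acs-6, acs-20, ech-2 and ech-7 were added, giving 38 of 58, against 32.1% of all coding genes. The 13 unbound genes without any pooled summit were acs-3, acs-6, acs-9, acs-15, acs-16, acs-18, acs-24, cpt-3, acdh-1, acdh-4, acdh-6, acdh-8 and ech-1.1.

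In direction and distance from a start, the strongest summits of the bound members were placed much like those of other bound genes. The strongest summit lay upstream in 29 of the 34 members (85.3%) and downstream in 5, against 88.4% upstream over all bound coding genes. It was within 300 bp of a start in 23 (67.6%), against 62.1% of all bound coding genes, and over 600 bp away in 6 (17.6%), against 16.2%. Of all 46 summits, 31 were intergenic, 8 in introns, 4 in coding exons, 2 in 5′ UTRs and 1 in a 3′ UTR. In 32 of the 34 the strongest summit was nearest to the member's own start, the exceptions being acs-12 and acdh-12 (94.1%, against 81.1% of all bound coding genes). In 7 of the 34 the strongest summit also lay in the window of another coding gene. For these 7, and for the split by intergenic, intron, exon and UTR position, the share over all bound coding genes is not given here.

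**Figure D4:**
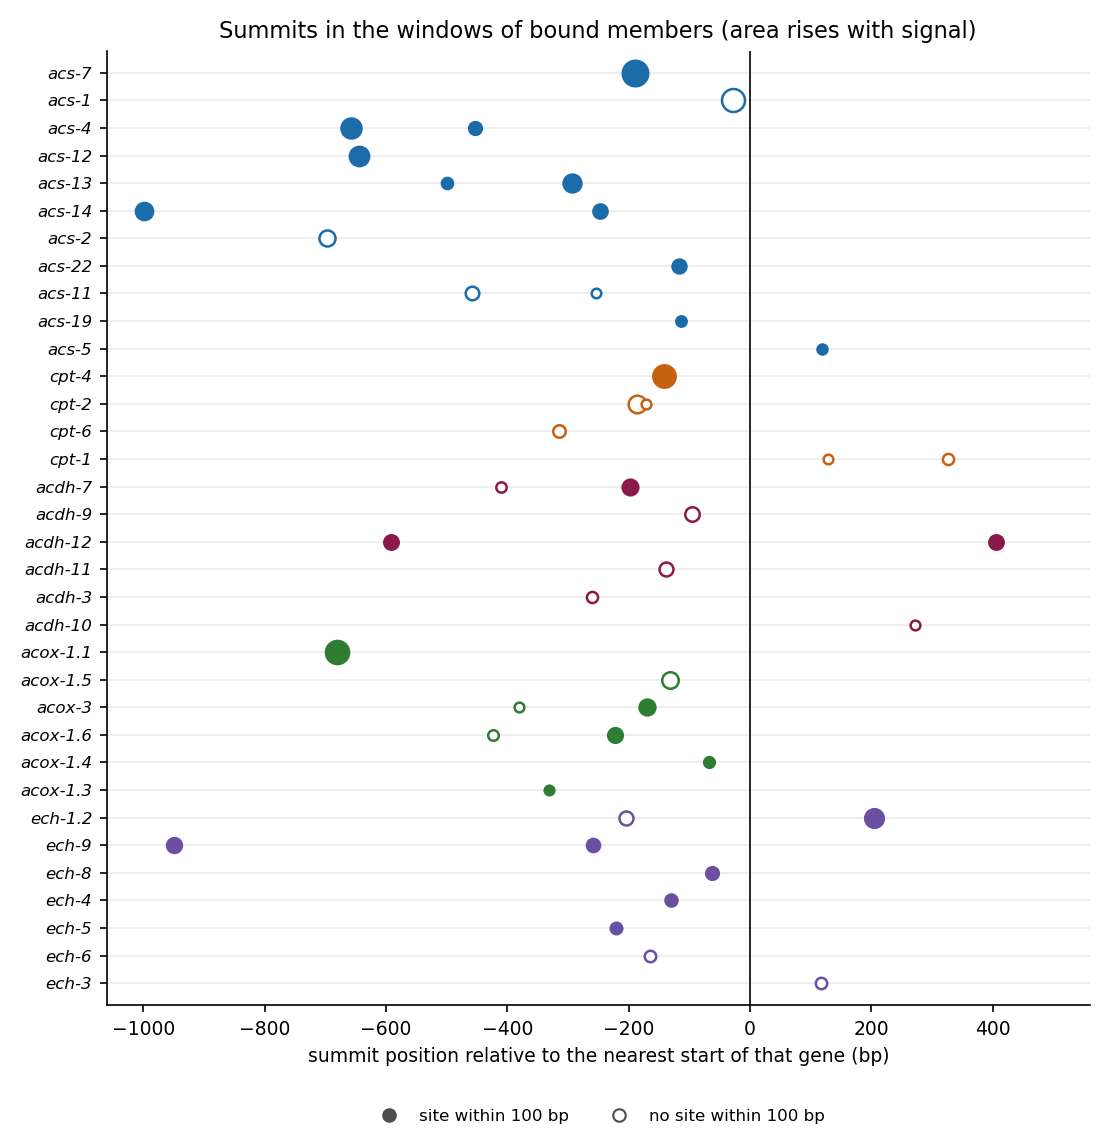
Position of each summit relative to the nearest start of its gene (horizontal axis, bp, negative is upstream) for the 34 bound members. Circle area rises with the authors' signal, and filled circles have TGATAA within 100 bp. Most summits lie within 300 bp upstream, and the filled circles are frequent in the acs, acox and ech rows and rare in the cpt rows.

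Each of the 46 member summits had a counterpart within 100 bp in both replicate lists. Entry to the IDR list depends on both replicates, so this match and the correlation that follows are in part built in. Across the 46 the log10 signals had a Spearman rho of 0.942 and a Pearson r of 0.922, a description over peaks that share both libraries. Because the scale differs between the replicate lists, a ratio of their signals can be read only against the same ratio at other peaks. The ratio of the replicate 2 to the replicate 1 signal had a median of 1.4 over the strongest peaks of the 34 members and 1.39 over 5127 promoter summits matched in both. It was below 1 at acs-2 and acs-19 alone among those 34 peaks, and at 11.4% of the promoter summits. The acs-2 values were 188.5 in replicate 2 (rank 2862) and 236.0 in replicate 1 (rank 1388), a ratio of 0.799 that lies at percentile 3.96 of the promoter summits. At acs-19, an acetyl-CoA synthetase gene, the nearest summit had 37.05 in replicate 2 and 71.37 in replicate 1. Replicate 2 had a stronger summit of 71.03 elsewhere in the same window, so the low ratio there depends on how the peaks were matched.

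**Figure D5:**
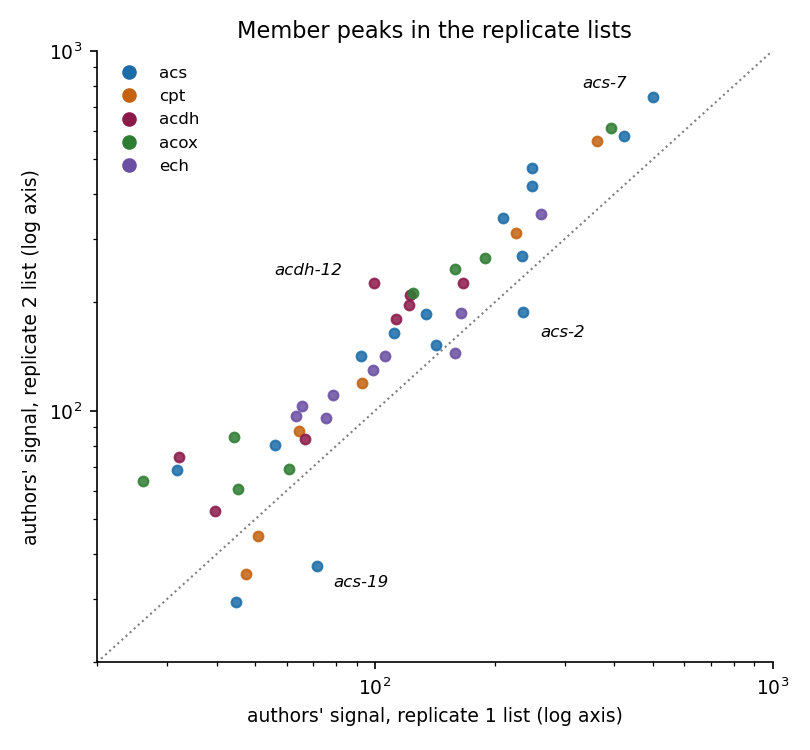
The authors' signal at the 46 member summits in the replicate 2 list (vertical) against the replicate 1 list (horizontal), both on log axes, coloured by family, with a dotted line of equal values. The lists differ in scale, so only distance from the band of points can be read, and of the strongest peaks per gene those of acs-2 and acs-19 fall below the line.

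The other genes of the pathway were also widely bound. Of a list of 51 symbols, 50 matched the annotation and 44 of these were bound (88.0%, interval 75.7 to 95.5%), against 26.7% of all coding genes, at a median signal of 328.0. With each summit given to the nearest start only, 39 of the 50 were bound (78%), against 22.1% of all coding genes. The list was chosen with earlier results of these data known, so these shares are a description of it. Counts by role below are of the listed genes only, which need not be all genes of that role. All 7 thiolases and other enzymes of the later steps were bound. The strongest were daf-22, the peroxisomal thiolase of ascaroside synthesis (1245.7), and dhs-28, the dehydrogenase that acts before it (679.6). The other 5 were hacd-1 (567.5), hadb-1 (384.5), maoc-1 (325.8), kat-1 (267.6) and acaa-2 (236.5). With acox-1.1 and acs-7, each step of ascaroside side-chain shortening named here, from activation to thiolysis, had a bound gene among those chosen. The choice was made with results of these data known, and acox-1.2, in the same cluster as acox-1.1, was not bound.

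The transport genes were bound as well. All 4 listed peroxisomal ABC transporter genes were bound, most strongly pmp-5 (668.4) and pmp-1 (460.7). So were 10 of 11 listed peroxin genes, most strongly prx-6 (516.1) and prx-12 (406.5), with prx-2 the exception. The summit counted for prx-11 is nearest to gale-1, and the strongest one for prx-13 is nearest to ada-2. For mitochondria, dif-1, a carnitine-acylcarnitine carrier gene (511.1), and let-721, the electron transfer flavoprotein dehydrogenase gene (461.1), were bound. Of the acyl-CoA binding proteins 4 of 6 were bound, most strongly maa-1 (648.4) and acbp-1 (596.1), and acbp-4 and acbp-5 were not.

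In the propionate pathways 7 of 8 genes were bound, most strongly pccb-1, a subunit of propionyl-CoA carboxylase (799.6), and alh-8 of the shunt (403.0), with mmaa-1 the exception. The shunt genes ech-6, hphd-1 (283.6) and alh-8 were bound, and the first gene of the shunt, acdh-1, was not. The call at hach-1 (201.4) rests on a summit nearest to the start of nmad-1. Both malonyl-CoA genes were bound, pod-2, the acetyl-CoA carboxylase gene (407.7), and mlcd-1, the malonyl-CoA decarboxylase gene (295.2), whose summit lies nearest to the start of idhg-1. Of the 10 regulators 8 were bound, most strongly nhr-68 (1529.6), a nuclear receptor of the propionate shunt, whose summit lies nearer to the start of H12C20.7, and nhr-80 (743.6). The receptor gene nhr-49, a main regulator of beta-oxidation in this animal, had a signal of 459.3, and nhr-10 and mdt-15 were not bound.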

How the data were processed

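ChIP-seq peak lists of 2 biological replicates of ELT-2 in whole L3 animals were used, on the build ce11. The authors deposited a list of peaks with background for each replicate (28033 and 30000 peaks), one for the pooled replicates (30000) and the IDR list (9198). A control library entered peak calling, per the deposited text files. Not given in the sources used here are the aligner, the peak caller, the IDR threshold and the handling of reads that map to several places. Signal values were deposited for each peak relative to the control. Their scale differs between the replicate lists and the IDR list. At the strongest peak of each bound member the IDR and pooled lists held the same value. The values served for description and ranking. Ratios between the replicate lists were set only against the same ratio at all promoter summits. The −log10 q-value that the authors gave each peak was not used. Depth is unknown because the lists hold no read counts, so its limit on weak peaks could not be assessed. The ce10 lists were not used.

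Genes and starts came from Ensembl release 115 (WBcel235) and sequence from RefSeq, in Python 3.11.15 with numpy 2.4.6, scipy 1.17.1 and matplotlib 3.10.9. The gene acs-25 carries that symbol only in RefSeq and was left out; its window held no summit. Replicate summits were matched within 100 bp. No test was run, since there is 1 group: shares stand beside those of all coding genes, with 95% exact (Clopper-Pearson) intervals. The window and site steps were tested on simulated data, and the matching of replicate summits was not. Alternatives changed the peak list, the window, the assignment to genes, the compartments and the site.

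The members and the compartments, like the pathway list, were chosen with earlier results of these data known. Full values were given for the 3 bound members with the highest signal in each family, for members sharing a summit with another gene and for those whose call changed with 1 replicate or with the window. Every unbound member was named with its nearest summit, as were the 2 bound genes with the highest signal in each pathway role; other genes named were chosen after their values were seen.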

Additional observations from a re-analysis of the deposited data

How the results depend on the processing

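Of 82 alternative values, 9 left the exact interval of the main value. Families of 6 to 22 genes have intervals so wide that staying inside them shows little. With only the IDR peaks at or above the median signal, 39.7% of the members, 40.9% of acs, 50% of cpt, 30.8% of acdh, 57.1% of acox (peroxisomal), 30.0% of ech, 36.8% of mitochondrial and 68% of the other pathway genes were bound, against 14.4% of all coding genes. With the whole pooled list, 77.6% of the members, 100% of the acox (peroxisomal) genes and 100% of the other pathway genes were bound, against 44.6% of all coding genes. From 500 bp upstream to 200 bp downstream, 72.0% of the other pathway genes were bound, against 21.3% of all coding genes. With nearest starts only, 78% of the other pathway genes were bound. With the looser GATA site, 76.1% of the member summits had a site. Each replicate was left out in turn by taking the 9198 strongest peaks of the other replicate's list, as many as the IDR list holds. That gave 56.9 to 60.3% of members, 45.5 to 50% of acs genes and 70 to 80% of ech genes, against 25.7 to 26.5% of all coding genes. TGATAA was at 54.0 to 54.2% of member summits, against 50.7 to 51% of all promoter summits. Either list left 66.7% of cpt, 46.2% of acdh, 85.7% of acox (peroxisomal), 52.6% of mitochondrial and 88.0% of the other pathway genes. The number of peaks was held equal, and entry to the IDR list depends on both replicates, so similar shares are in part built in. Without replicate 2, acs-5 and acox-1.3 were lost and acox-1.2 was added; without replicate 1, ech-2 was added. Under all 8 settings of peak list, window and nearest start, 20 members were bound and 12 unbound. The same counts over all coding genes are not given here. Mitochondrial members taken from RefSeq product names, an alternative chosen after seeing the data, were bound at 10 of 18 (55.6%). The compartment from targeting tripeptides of the proteins was not run, as no protein table was used here. No paired analysis was possible because there is 1 group. Depth limits the weak peaks by an unknown amount.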

Other observations

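A 13-base run around TGATAA was shared by the printed acox-3 and acdh-12 stretches, the second of which is also the maoc-1 promoter. It was noticed after the sequences were seen, and reads TTGATAAGACTAC. The run occurs at 7 places in the nuclear genome on either strand, and 4 of these lie within 100 bp of an IDR summit. The summits at acox-3 (signal 412.1) and maoc-1 (325.8) are among these 4 by construction, since the run was defined from them. The other 2 are at acox-1.4 (127.8), also a peroxisomal oxidase gene, and at got-1.2 (204.7). The site centres lie 134 bp upstream of the acox-3 start, 45 bp upstream of maoc-1, 120 bp upstream of acox-1.4 and 307 bp upstream of got-1.2. The remaining 3 copies lie over 2000 bp from the nearest coding start and over 100 bp from any summit. The run has the orientation of the gene at acox-3 and the opposite one at maoc-1, acox-1.4 and got-1.2. Whether the copy at acox-1.4 is more than paralogy with acox-3 or base composition would give was not tested.

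Close pairs of summits were seen at some of the members. A neighbouring summit 190 to 220 bp away was found for 14 of 46 member summits (30.4%) and 14% of all promoter summits. Both summits of a pair are counted, so the member share rests on the few genes named next, and no interval was computed for it. No pair in the IDR list was closer than 199 bp. The genes with such pairs were acs-4, acs-11, acs-13, cpt-1, acdh-7, acox-1.6 and acox-3, and in each the stronger summit had 1.77 to 4.63 times the signal of the weaker. Whether these pairs are separate sites was not tested.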
